A study of Mus musculus with 6 samples.

Results

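The mu-class glutathione S-transferases are the 7 mouse genes Gstm1 to Gstm7, out of 19938 genes measured on these arrays. Each gene was taken from the probe sets annotated with its symbol alone, and its probe set was chosen by the highest mean log2 signal over all 6 arrays, a choice that mattered only for Gstm3, which has 2 probe sets. The family was taken up with an earlier result of these data known, namely that Gstm3 was among the largest falls, so the share of members that fell is a description of the family and not independent evidence about it. The 7 genes had 8 probe sets with a single symbol, and 0 probe sets were annotated with several Gstm symbols. Mouse embryonic stem (ES) cells of the Oct4-GiP line, which carry a reporter of the pluripotency gene Oct4, were grown on gelatin in serum-free N2B27 medium. Every culture contained LIF at 1000 U/ml, the MEK inhibitor PD0325901 at 1 μM and the GSK3β inhibitor CHIR99021 at 3 μM, and 3 arrays came from cultures with no addition and 3 from cultures given vitamin C, as L-ascorbic acid 2-phosphate at 200 μg/ml, over 72 hours. A single cell line was used. The design text calls the samples biological triplicates, without stating whether the cultures were started on separate days.

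Glutathione S-transferases join the tripeptide glutathione to reactive, electrophilic compounds, which are then exported from the cell and broken down to mercapturates. The soluble enzymes fall into classes named by Greek letters, and an active mu-class enzyme is a dimer of mu-class subunits. The mu-class genes lie side by side on mouse chromosome 3, arose by gene duplication and are therefore close in sequence. Several transferase genes are known targets of NRF2, the transcription factor of the response to electrophiles and oxidants, which binds antioxidant response elements.

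Of the 7 mu-class genes, 4 fell with vitamin C (Gstm1, Gstm2, Gstm3 and Gstm7), none rose, and Gstm4, Gstm5 and Gstm6 did not pass the test. The vitamin C signal was 66.8% of the untreated signal for Gstm1, the smallest fall, and 34.8% for Gstm3, the largest (a 2.87-fold fall). A gene was called by limma at an adjusted p under 0.05 with Benjamini-Hochberg adjustment over all 19938 genes, and every adjusted p below is from that test. Over all genes 13.2% were called, 7.4% lower and 5.75% higher. The median log2 difference, vitamin C minus untreated, was -0.58 over the 7 members and 0.01 over all genes. Of the members that did not pass, Gstm5 had an unadjusted p under 0.05 in the upward direction, and a spread model with trend and robust moderation called it higher (adjusted p = 0.0341). That model called 4151 of the 19938 genes, 1731 higher and 2420 lower. How many of all genes had an unadjusted p under 0.05 was not counted, so counts at that cut below are descriptions only.

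**Figure D1:**
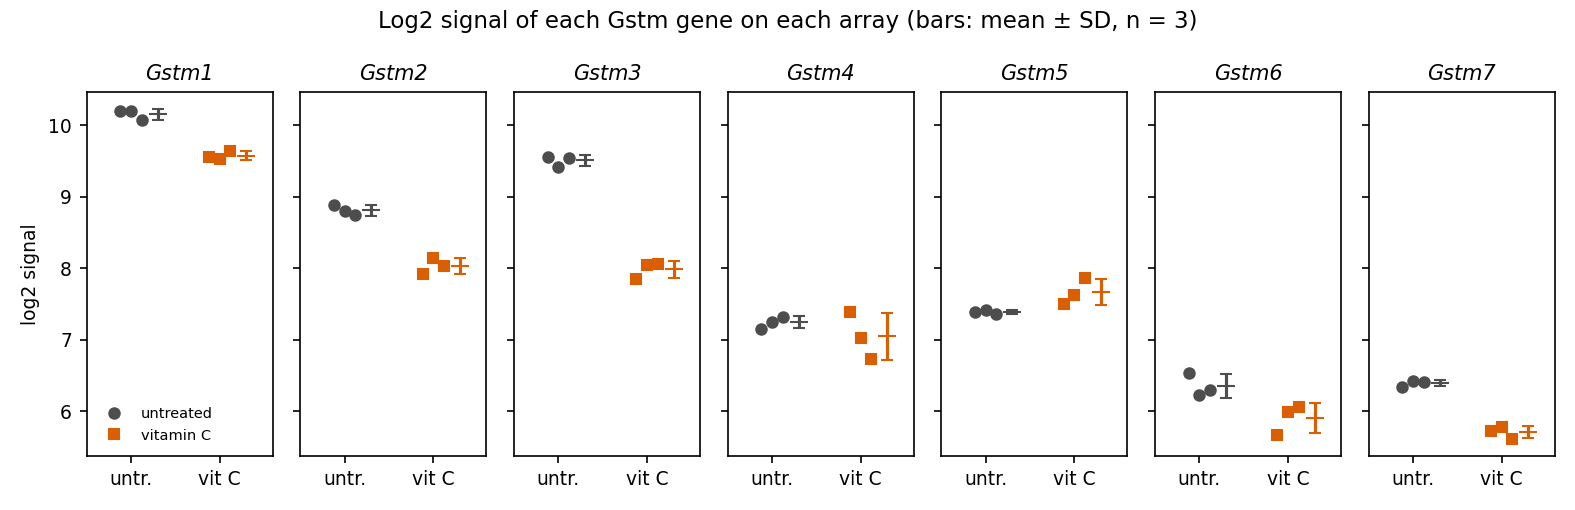
Log2 signal (vertical axis) of the 7 Gstm genes on the 3 untreated arrays (grey circles) and the 3 vitamin C arrays (orange squares), with the mean and SD (n = 3) beside each group. The groups of Gstm1, Gstm2, Gstm3, Gstm6 and Gstm7 do not overlap and lie lower with vitamin C, those of Gstm5 do not overlap and lie higher, and those of Gstm4 overlap; heights in different panels come from different probe sets and are not comparable.

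The promoters are shown for the 2 largest falls, Gstm3 and Gstm2, for Gstm1, and for Gstm4 and Gstm5, which did not pass, because the series concerns DNA demethylation and these windows differ in CpG content, CpG being the dinucleotide that mammalian DNA methylation uses. Each is the 250 bases before the annotated start farthest upstream, from RefSeq on GRCm38.p6, written 5′ to 3′ in the direction of transcription with every CpG in capitals. The array files carry no methylation values.
Gstm3 (chr3:107969175-107969424, minus strand): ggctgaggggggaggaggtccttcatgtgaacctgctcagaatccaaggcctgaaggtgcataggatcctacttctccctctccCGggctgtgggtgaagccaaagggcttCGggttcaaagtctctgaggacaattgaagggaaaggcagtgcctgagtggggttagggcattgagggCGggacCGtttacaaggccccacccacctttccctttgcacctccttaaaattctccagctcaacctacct
Gstm2 (chr3:107986421-107986670, minus strand): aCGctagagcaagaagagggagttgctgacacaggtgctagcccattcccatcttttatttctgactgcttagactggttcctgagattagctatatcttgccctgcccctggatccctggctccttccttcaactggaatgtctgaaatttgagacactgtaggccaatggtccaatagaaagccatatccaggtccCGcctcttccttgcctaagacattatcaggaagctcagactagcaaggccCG
Gstm1 (chr3:108017974-108018223, minus strand): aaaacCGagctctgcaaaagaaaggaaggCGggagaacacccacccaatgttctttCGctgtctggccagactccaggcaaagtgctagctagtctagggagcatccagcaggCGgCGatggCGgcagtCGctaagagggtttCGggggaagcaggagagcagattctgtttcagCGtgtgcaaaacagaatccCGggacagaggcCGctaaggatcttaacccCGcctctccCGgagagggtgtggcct
Gstm4 (chr3:108044860-108045109, minus strand): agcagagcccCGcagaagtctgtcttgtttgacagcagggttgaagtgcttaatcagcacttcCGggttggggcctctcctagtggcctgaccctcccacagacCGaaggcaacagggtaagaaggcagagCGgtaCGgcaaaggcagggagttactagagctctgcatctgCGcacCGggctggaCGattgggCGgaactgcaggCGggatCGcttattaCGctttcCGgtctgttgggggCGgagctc
Gstm5 (chr3:107895604-107895853, plus strand): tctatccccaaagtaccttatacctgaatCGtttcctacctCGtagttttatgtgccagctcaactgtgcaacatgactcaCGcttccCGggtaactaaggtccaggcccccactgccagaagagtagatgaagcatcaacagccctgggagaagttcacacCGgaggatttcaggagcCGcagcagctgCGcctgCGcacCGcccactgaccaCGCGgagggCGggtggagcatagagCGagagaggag

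Gstm3 has 4 CpG in these 250 bases and Gstm2 has 3, where the median over 32817 annotated promoter windows of the same length was 6. Gstm4 has 14 and Gstm5 has 13. Of all windows, 37.8% have fewer CpG than Gstm3 and 29.1% fewer than Gstm2, against 70.7% for Gstm4 and 68.5% for Gstm5. From the upstream start on, the shares were 68.5% and 57.0% for Gstm1 and 37.8% and 53.7% for Gstm7. For Gstm6 they were 29.1%, 37.8% and 53.7%. Gstm1, which fell, has 13 at its upstream start and 8 at a downstream start. Gstm7, which also fell, has 4 and 7 at its 2 starts, and Gstm6 has 3, 4 and 7 at its 3 starts. Low counts were found in members that fell and in Gstm6, which did not pass but also lay lower (-0.45, adjusted p = 0.0581). Gstm1 fell with a count above the median at both starts. With 7 related genes this is a description, and which start was used in these cells was not tested.

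**Figure D2:**
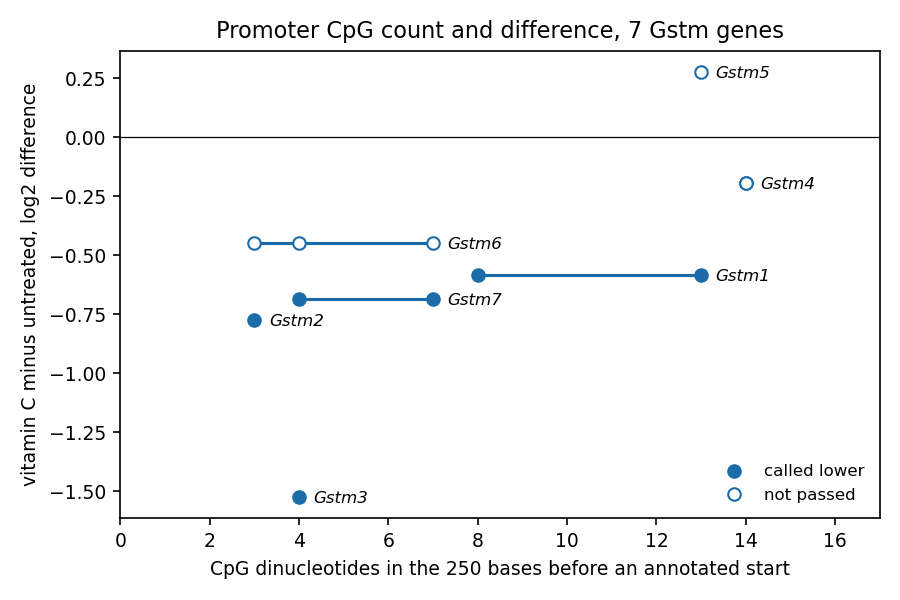
CpG count in the 250 bases before each annotated start (horizontal axis) against the log2 difference, vitamin C minus untreated (vertical axis), for the 7 Gstm genes; a line joins the starts of one gene, filled points are called lower and open points did not pass. Gstm3 and Gstm2 sit at 4 and 3 CpG and Gstm5 and Gstm4 at 13 and 14. Gstm1 spans 8 to 13, Gstm7 spans 4 to 7 and Gstm6 spans 3 to 7.

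Motifs were searched on both strands of the same 250 bases of the 12 annotated windows of the family, allowing overlaps. The antioxidant response element core TGACNNNGC was found in the window of Gstm5, 42 bases before the start, and at the downstream start of Gstm7, 129 bases before it, and in none of the other windows. It occurs in 10.2% of all 32817 windows. The hypoxia response element cores ACGTG or GCGTG occurred in Gstm1 and Gstm5, and 38.6% of all windows hold at least 1 of them. The windows of the 2 Gstm1 starts overlap and share 1 GCGTG. It lies 231 bases before the downstream start and 76 bases before the upstream start. The downstream window also holds ACGTG on the opposite strand, 50 bases before its start. Gstm5 holds 2 copies of GCGTG on the opposite strand. The copy 38 bases before the start overlaps the antioxidant element match. The TATA-box letters TATAAA were found 30 bases before the downstream start of Gstm1 and 231 bases before the upstream start of Gstm7 (12.4% of all windows). The windows of Gstm2, Gstm3, Gstm4 and Gstm6 hold none of these letters, which says nothing about the factors themselves.

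Gstm3, a glutathione-conjugating enzyme of the class whose promoter, with 4 CpG, is printed above, had the largest difference in the family. Its log2 signals were 9.56, 9.42 and 9.54 on the untreated arrays and 7.85, 8.04 and 8.06 on the vitamin C arrays. The groups were separated by a gap of 1.36, far more than the range within either. The mean went from 9.51 ± 0.077 to 7.98 ± 0.12 (SD, n = 3 each), a log2 difference of -1.52 ± 0.08 (SE, 95% interval -1.71 to -1.33, adjusted p = 0.000143). The difference ranked 9 from the lowest among the 19938 genes. The other probe set of Gstm3 (10362511, beside 10501218) had a nearly equal mean over all arrays, 8.73 against 8.74, and was passed over for that reason. On it the signals were 9.36, 9.22 and 9.40 without and 7.96, 8.15 and 8.29 with vitamin C. That difference was -1.19 ± 0.10 (SE, 95% interval -1.45 to -0.94), a 2.29-fold fall, in the fit of all probe sets (adjusted p = 0.00484). Both probe sets therefore fell, and the size of the fall depended on which was read. The sources used here do not place the probes, and whether both probe sets detect the same transcript was not tested.

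Gstm2, another conjugating enzyme of the class, was next. Its log2 signals were 8.89, 8.80 and 8.74 without and 7.92, 8.15 and 8.03 with vitamin C. All vitamin C arrays lay below all untreated arrays, by 0.59 at the nearest. The difference was -0.77 ± 0.08 (SE, adjusted p = 0.00163), which left 58.5% of the untreated signal.

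Gstm7, a further subunit of the class, showed values of 6.34, 6.42 and 6.41 on the untreated arrays and 5.73, 5.78 and 5.61 with vitamin C. The spread within each group (SD 0.044 and 0.088) was small beside the gap of 0.56 between them. It fell by 0.69 on the log2 scale (SE 0.07, adjusted p = 0.00152), to 62.1% of the untreated signal.

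Gstm1, a member known both for conjugation and for binding the stress kinase ASK1, had signals of 10.20, 10.19 and 10.07 in untreated cells and 9.56, 9.52 and 9.64 with vitamin C. Its groups were apart by 0.43. The mean fell from 10.15 ± 0.077 to 9.57 ± 0.061 (SD, n = 3 each), a difference of -0.58 ± 0.07 (SE, adjusted p = 0.00270). This call ended when the test asked for more than a 1.2-fold change (adjusted p = 0.0516), whereas those of Gstm2, Gstm3 and Gstm7 held.

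Gstm6 pointed the same way with more scatter. Its signals were 6.54, 6.22 and 6.30 without and 5.67, 5.98 and 6.06 with vitamin C, so the groups did not overlap but were only 0.16 apart. The difference of -0.45 ± 0.13 (SE, 95% interval -0.74 to -0.15) did not pass (adjusted p = 0.0581). It passed with the trended and robust spread model (adjusted p = 0.0144), when only genes above the median mean signal were tested (adjusted p = 0.0186), and with arrays centred on their median over all probe sets (adjusted p = 0.0425).

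Gstm4 did not separate the groups. Untreated arrays read 7.15, 7.25 and 7.32, and vitamin C arrays 7.39, 7.02 and 6.73, so the treated arrays spanned the untreated ones. The vitamin C spread (SD 0.33) was the widest of the family. The difference was -0.19 ± 0.15 (SE, 95% interval -0.55 to 0.17, adjusted p = 0.454). Without vitamin C replicate 1 the difference was -0.36 and without vitamin C replicate 3 it was -0.04, and neither passed.

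Gstm5, a member known from testis and brain, was the one with a positive difference. Its signals were 7.39, 7.42 and 7.35 in untreated cells and 7.50, 7.62 and 7.86 with vitamin C. The groups did not overlap, by a margin of 0.083. The difference of 0.28 ± 0.10 (SE, 95% interval 0.05 to 0.50) did not pass (adjusted p = 0.109). Besides the trended and robust model, the test of genes above the median mean signal called it (adjusted p = 0.0403).

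Counted by overlap alone, 5 of the 7 members had all 3 vitamin C arrays below all 3 untreated arrays and 1 had them above. Over all genes 35% had groups that did not overlap, 18.2% lower and 16.8% higher with vitamin C.

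To compare the members with each other, the difference in log2 signal between 2 genes was taken within each array. All 6 pairs that include Gstm3 had untreated and vitamin C arrays that did not overlap. For example, Gstm1 minus Gstm3 lay between 0.53 and 0.78 on the untreated arrays and between 1.48 and 1.71 on the vitamin C arrays, a shift of 0.94. These pairs restate the difference of Gstm3 that was known when the family was taken up, and they rest on the probe set of Gstm3 with the larger fall. The shift of Gstm2 minus Gstm3 was 0.75, and that of Gstm3 minus Gstm5 was -1.80. The exact two-sided permutation test of each such pair gave p = 0.1, the smallest value that 3 against 3 arrays allow, and 0.162 after Benjamini-Hochberg adjustment over the 21 pairs, so none could pass. Of the 15 pairs without Gstm3, 7 did not overlap. Among Gstm1, Gstm2 and Gstm7 the shifts were 0.19 for Gstm1 minus Gstm2, 0.10 for Gstm1 minus Gstm7 and -0.09 for Gstm2 minus Gstm7, with overlapping arrays, and for Gstm1 minus Gstm4 the shift was -0.39, also with overlapping arrays. With 3 arrays a group these values do not show that any members changed alike. The members are paralogues, the probe sequences were not used here, and whether the signal of one member includes transcripts of another was not tested.

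In chromosome order on assembly GRCm38.p6 the family reads Gstm5, Gstm7, Gstm6, Gstm3, Gstm2, Gstm1 and Gstm4, with 0 other measured genes between them. Gstm5 is transcribed in the opposite direction to the other members. The 4 genes that fell, and Gstm6, lie inside the row, and the members at its ends are Gstm5 and Gstm4, which did not pass. None of the 16 nearest measured genes, 8 on each side, was called by limma. Their differences lay between -0.31 and 0.52, with adjusted p-values of 0.0532 or more. Of these 16, 6 had an unadjusted p under 0.05. The share of all genes at that cut was not counted, so the 6 are only a description. Before Gstm5 come 4933431E20Rik (-0.10 ± 0.10 SE), Eps8l3 (0.12 ± 0.10 SE) and Csf1, the gene of a macrophage growth factor (0.52 ± 0.18 SE, adjusted p = 0.0999). After Gstm4 come Ampd2, which encodes an AMP deaminase (0.28 ± 0.08 SE, adjusted p = 0.0610), Gnat2 (0.12 ± 0.10 SE) and Gnai3, an inhibitory G-protein subunit gene (-0.23 ± 0.06 SE, adjusted p = 0.0587). Other settings were examined only for these named neighbours. With the trended and robust spread model Csf1 and Ampd2 were called higher (adjusted p = 0.0339 and 0.0178) and Gnai3 lower (adjusted p = 0.00667), all with smaller differences than that of Gstm1. Over the alternative settings Ampd2 gained a call in 4, Gnai3 in 3 and Csf1 in 1.

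**Figure D3:**
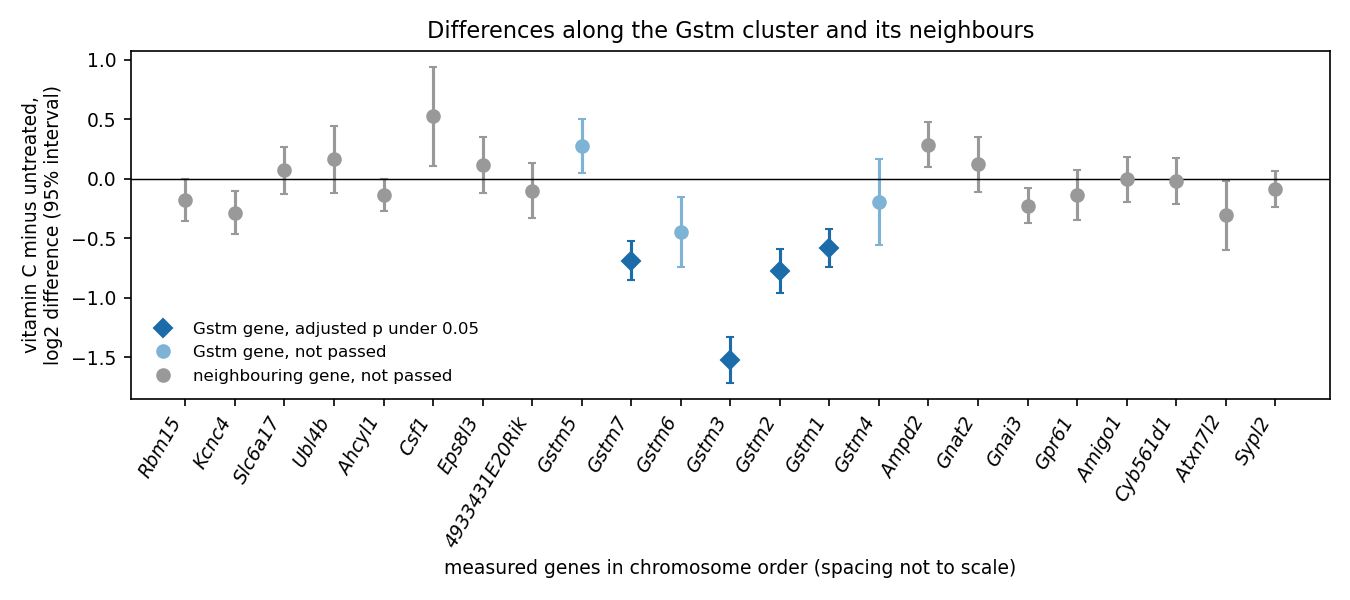
Log2 difference, vitamin C minus untreated, with its 95% interval (vertical axis) for the 7 Gstm genes (blue) and the 8 nearest measured genes on each side (grey), in chromosome order and not to scale; diamonds passed the limma test. The 4 called members and Gstm6 lie between Gstm5 and Gstm4, and no grey gene passed.

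Outside the mu class the soluble transferases went both ways. Of 13 measured genes of the alpha, pi, theta, omega and zeta classes and their relatives (18 listed), 2 rose, 2 fell and 9 did not pass, with a median difference of -0.08. Gsto1, an omega-class enzyme that reduces dehydroascorbate, the oxidised form of vitamin C, rose by 1.33 ± 0.08 (SE, adjusted p = 0.000152). Gsta3, an alpha-class enzyme, was higher by 0.60 ± 0.13 (SE, adjusted p = 0.0231). It no longer passed without untreated replicate 2 (0.0555) or 3 (0.0695), without vitamin C replicate 1 (0.0809) or 2 (0.0660), without moderation (0.112) and with all probe sets tested (0.0690). The theta-class gene Gstt2 fell by 0.91 (SE 0.08, adjusted p = 0.00102) and the pi-class gene Gstp3 by 0.71 (SE 0.09, adjusted p = 0.00430). The brightest of those that did not pass were Gsta4 (-0.05 ± 0.06 SE) and Gstp1 (0.07 ± 0.06 SE). Transferase classes hold close copies too, so the separate values of Gstp and Gstt genes carry the same uncertainty as those of Gstm.

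Of 7 mitochondrial and membrane transferases and their relatives, 1 fell and 6 did not pass. At an unadjusted p under 0.05, 2 were higher. The trended and robust model called 1 of the 7 higher, beside 1731 of all 19938 genes. The one that fell was Mgst3, a microsomal transferase and peroxidase, from 9.15 ± 0.044 to 8.32 ± 0.077 (SD, n = 3 each), a difference of -0.83 ± 0.07 (SE, adjusted p = 0.000620). Ptges (0.33 ± 0.10 SE, adjusted p = 0.0696), which makes prostaglandin E, and Mgst2 (0.30 ± 0.12 SE, adjusted p = 0.146) did not pass.

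Of 22 measured genes that make, recycle, degrade or use glutathione, 1 rose, none fell and 21 did not pass, with a median of -0.07. Their groups did not overlap for 4 in the higher and 8 in the lower direction, where the shares over all genes were 16.8% and 18.2%. By limma's unadjusted p under 0.05, 4 were higher and 2 lower. The trended and robust model called the same numbers, 4 higher and 2 lower, beside 1731 higher and 2420 lower of all 19938 genes. The gene that rose was Chac1, which degrades glutathione, by 0.88 ± 0.12 (SE, adjusted p = 0.00459). The glyoxalase gene Glo1 (-0.06 ± 0.06 SE) and Slc3a2, a subunit of the cystine importer (0.09 ± 0.06 SE), did not pass. Of 12 measured genes of conjugate export and mercapturate metabolism, 6 did not pass, 2 rose and 4 fell (median 0.10). The dipeptidase gene Dpep3 rose by 1.40 ± 0.09 (SE, adjusted p = 0.000241) and the efflux transporter gene Abcc4 by 0.50 ± 0.07 (SE, adjusted p = 0.00439). The aminoacylase Acy1 fell by 0.39 (SE 0.06, adjusted p = 0.00771) and the aminopeptidase Anpep by 0.69 (SE 0.12, adjusted p = 0.0108, but 0.0740 without moderation). Abcc5 (0.08 ± 0.08 SE) and Abcc2 (0.36 ± 0.12 SE, adjusted p = 0.0834) did not pass.

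Nfe2l2, the gene of NRF2, did not pass: its RNA signal differed by -0.06 ± 0.06 (SE, 95% interval -0.21 to 0.09, adjusted p = 0.566), and that of its relative Nfe2l1 by -0.04 ± 0.06 (SE). NRF2 protein and its activity were not measured. Of 15 regulators of transferase genes, 1 rose, 2 fell and 12 did not pass. The called ones were Arnt, the partner of the dioxin receptor (-0.29 ± 0.06 SE, adjusted p = 0.0203), Maff, a small MAF partner of NRF2 (-0.32 ± 0.08 SE, adjusted p = 0.0389), and Bach2, a repressor related to NRF2 (0.28 ± 0.07 SE, adjusted p = 0.0470). The call of Arnt was lost when any array other than vitamin C replicate 2 was left out (0.0554 to 0.0670), that of Maff when any other than vitamin C replicate 3 was (0.0759 to 0.108), and that of Bach2 with any array left out (0.0555 to 0.130). The calls of Maff and Bach2 were also lost with all probe sets tested (0.0846 and 0.0938) and without moderation (0.0962 and 0.0951), and that of Bach2 with the trended and robust model (0.0621), with quantile normalization again (0.0967) and with arrays centred on their median over all probe sets (0.0804). Of 22 measured NRF2 targets outside the transferases, 2 rose, 3 fell and 17 did not pass, with a median of 0.01 (Gclc, Gclm, Slc7a11 and Abcc1 also stand in the lists above). The trended and robust model called more of them, 8 higher and 6 lower, as it also called more of all 19938 genes (4151 against 2623). The carbonyl reductase gene Cbr3 rose by 0.66 ± 0.09 (SE, adjusted p = 0.00412), whereas Blvrb, which encodes a biliverdin reductase (-0.46 ± 0.07 SE), the conjugate exporter gene Abcc1 (-0.48 ± 0.09 SE) and the sulfiredoxin gene Srxn1 (-0.35 ± 0.06 SE) fell, with adjusted p-values of 0.00612, 0.0130 and 0.0138. The call of Abcc1 was lost without moderation (0.0640). The other gene of this list that rose was Nqo1, a quinone reductase (0.26 ± 0.07 SE, adjusted p = 0.0436), whose call was lost with any array left out (0.0525 to 0.119), without moderation (0.0679), with all probe sets tested (0.0823) and with arrays centred on their median over all probe sets (0.0792). The brightest of those that did not pass were the ferritin gene Ftl1 (-0.07 ± 0.06 SE) and thioredoxin, Txn1 (0.14 ± 0.06 SE, adjusted p = 0.157). When more than a 1.2-fold change was asked for, the calls of Gsta3, Abcc4, Acy1, Anpep, Arnt, Maff, Bach2, Cbr3, Blvrb, Abcc1, Srxn1 and Nqo1 were lost (adjusted p between 0.0537 for Cbr3 and 1). The lists were compiled with earlier results of these data known, and no list was tested as a set.

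**Figure D4:**
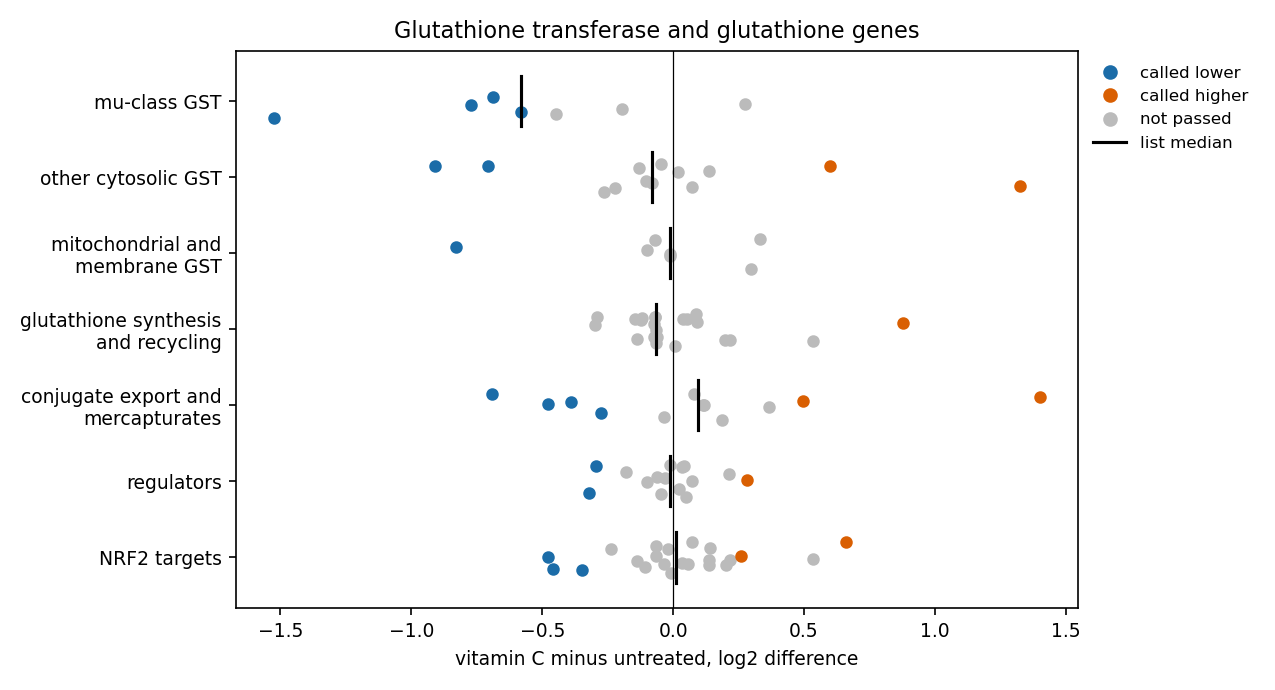
Log2 difference, vitamin C minus untreated (horizontal axis), of each measured gene in 7 lists; points are genes, spread vertically for visibility, blue called lower, orange called higher and grey not passed, and the black bar is the list's median. The median of the mu class is -0.58, and those of the other 6 lists lie between -0.08 and 0.10.

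The genes whose values followed those of Gstm3 most closely over the 6 arrays were Cox14 (Pearson r = 0.999), Anapc15 (0.999), Sf3b2 (0.998), Phlda2 (0.998) and Pou2f3 (0.998). For Gstm1, whose probe set had the highest mean signal in the family, they were Gemin7 (0.998), Ntn1 (0.997), Mavs (0.997), Ppp2r5c (0.997) and H2bc3 (0.996). These are descriptions over 6 arrays in 2 groups, in which any gene that separates the groups cleanly correlates highly. Gstm2 correlated with Gstm3 at 0.988, Gstm1 at 0.976 and Gstm7 at 0.974, each exceeded by over 100 other genes. Gstm6 followed at 0.875, Gstm4 at 0.365 and Gstm5 at -0.740.

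Over 10 pluripotency genes, markers of the labelled cell type, the mean log2 signal lay between 10.60 and 10.63 on the untreated arrays. With vitamin C it lay between 10.70 and 10.72, and 3 of the 10 rose. Of liver genes, added because mu-class enzymes are abundant in liver, 0 of 6 passed limma's test or its trended and robust form, with 1 at an unadjusted p under 0.05. Over all genes limma called 5.75% higher and 7.4% lower. Fibroblast markers mostly moved with the treatment in the opposite direction to the Gstm genes that fell. Of 12 measured, 7 rose, 1 fell and 4 (Thy1, Postn, Fap and Vim) did not pass. Their mean went from between 5.60 and 5.75 to between 6.15 and 6.23. The largest rises were those of Acta2 (1.83), Dcn (1.06) and Tagln (1.03), the one that fell was Pdgfrb (-0.32, adjusted p = 0.0179; 0.0576 to 0.0613 with untreated replicate 1 or 2 or vitamin C replicate 1 or 3 left out), and 3 of the 12 were below the lower quartile of every array in both groups. Primitive endoderm markers (2 of 8 higher) went from means of 5.27 to 5.36 up to 5.51 to 5.59, and of 8 trophectoderm markers 1 rose and 2 fell. Their part in the Gstm differences was not tested. In bulk RNA, a change in the share of cells and a change in RNA per cell cannot be told apart.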

How the data were processed

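RNA was measured on 6 one-colour Affymetrix arrays; per the labels' protocols it was purified with DNase digestion, amplified with the Ovation Pico WTA kit and labelled with biotin. RMA is named in the submitters' processing notes, with software, version and probe-set level not given in the sources used here. The deposited values are log2 signals, a scale inferred from their range, with array medians between 5.52 and 5.60. Signals of different probe sets are not comparable, differences of dim probe sets are compressed, RMA would hide a change common to all genes, and precision is limited by the number of arrays. Of 35557 probe sets, 21789 have 1 symbol in the platform annotation (21698 matched by gene ID to GRCm38.p6), 1621 several and 12147 none. Vitamin C was compared with untreated across all 19938 genes with limma 3.58.1 in R 4.3.3 (lmFit, eBayes, no covariate), and the test was tested on simulated data. The titles give the groups. If the cultures were not independent, p-values measure technical spread. The named-gene rule took all members, up to 4 called genes per list by p (all for the transferase lists), the 2 brightest that did not pass, 3 neighbours a side and the 5 most correlated genes with an assigned name. Nqo1, Acta2, Dcn, Tagln and Pdgfrb fall outside that rule and were chosen after their values were seen. Members and lists were chosen with earlier results of these data known. Alternatives changed the spread model, the normalization, the dim-gene filter, the probe sets, the weights, the threshold, the block and the arrays included. Promoters were read from RefSeq sequences for 7 of 7 members with Python 3.11.15, and figures drawn with matplotlib 3.10.9.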

Additional observations from a re-analysis of the deposited data

How the results depend on the processing

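Across 18 alternative settings, of which the other probe set of Gstm3 and centring on the median over all probe sets were chosen after seeing the data, none of the 7 Gstm differences changed sign, and the number of members called lower lay between 3 and 5 against 4. Leaving out each array in turn kept all 4 calls, with 4 called lower and 0 higher each time. The differences then ranged from -1.57 to -1.45 for Gstm3, from -0.83 to -0.72 for Gstm2, from -0.72 to -0.64 for Gstm7 and from -0.63 to -0.56 for Gstm1. The number called higher, 0, became 1 with the trended and robust spread model and 1 when only genes above the median mean signal were tested, each time Gstm5; the cause was not tested. The count of members whose groups did not overlap in the lower direction was 5, and 6 without vitamin C replicate 1. Read through its other probe set, Gstm3 fell by 1.19. Deviations from the group means correlated at 0.05, 0.01 and -0.02 between same-numbered arrays, and between -0.07 and 0.05 for the other pairs of arrays. With 3 arrays a group these values cannot decide whether same-numbered cultures were paired. With the replicate block 4 members were called lower and 0 higher, and 1723 genes in all. Arnt (adjusted p = 0.0554), Maff (0.0855), Bach2 (0.0748) and Nqo1 (0.0936) were not called with that block. Over all genes 2623 were called, against 4151 with the trended and robust model, 1545 without moderation, 395 when a change above 1.2-fold was asked for, and 1483 to 1721 with 1 array left out. Of the called genes, 56.3% were lower (1147 higher and 1476 lower). That share was 67.9% with arrays centred on their median over all probe sets, 63.1% for genes above the median mean signal, 51.5% with quantile normalization again, 50.6% with all probe sets tested and 48.6% when a change above 1.2-fold was asked for. Of 17 called genes named from other lists, 6 kept the call under every setting.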
